A study of Mus musculus with 3 samples.

Results

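The endoplasmic reticulum folding and secretion genes are 32 genes chosen by name: chaperones, disulfide isomerases, translocon and signal peptidase subunits, and degradation factors. All 32 were found by gene symbol among the 33700 genes of the deposited tables, 1 row each, and all 32 had a mean of at least 1 RPKM over the libraries (RPKM is the number of reads per kilobase of gene, scaled to the size of the library). RNA came from C57BL/6 splenic B cells depleted of CD43+ cells, and all cultures received lipopolysaccharide (LPS) and interleukin-4 (IL-4) for 3 days. There was 1 library for JQ1+ at 80 nM, which displaces BET bromodomain proteins from acetylated chromatin, 1 for flavopiridol at 30 nM, an inhibitor of cyclin-dependent kinases including Cdk9, and 1 for the vehicle DMSO. The labels do not say how many mice or cells each culture came from, whether mice were pooled, or whether the cultures shared a donor, and the culture field of all 3 libraries carries the wording for DMSO, so the treatment field sets the groups.

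Proteins destined for the cell surface or for secretion enter the endoplasmic reticulum through the Sec61 channel, lose their signal peptide, and fold with the help of chaperones, lectins and disulfide isomerases. Proteins that do not fold are sent back to the cytosol for degradation. Unfolded protein in the lumen activates the sensors IRE1, ATF6 and PERK, whose downstream factors raise transcription of these same genes. B cells that become antibody-secreting cells enlarge this machinery, since antibody chains fold and assemble there.

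A sequence known from promoters of such genes is the endoplasmic reticulum stress element (ERSE), at which ATF6 and NF-Y are known to bind. The pattern searched was CCAAT, then 9 bases of any kind, then CCACG, on either strand, in windows running from 250 bases before to 50 bases after the annotated transcript start. RefSeq promoter windows of build GRCm38.p6 were available for 26 of the 32 genes by symbol. An exact ERSE was present in 8 of these 26, 30.8%, against 37 of 27025 genes with a window, 0.137%. The 37 include the 8. Since the element is known from promoters of such genes, the contrast is a description and not an independent finding. ERSE-II, a related element spelled ATTGG, then 1 base, then CCACG, was present in Herpud1 and Dnajb11 and in 12 of 27025 genes, 0.0444%. The XBP1 core TGACGTGG was in none of the 26 windows and in 0.714% of all genes, and no ERSE match overlapped an ERSE-II match. The stretches before the transcript start that hold an exact element are shown, since these elements were more frequent in this set than in all promoters, although most of the 26 windows hold none. They are written 5′ to 3′ on the strand of the gene, with the fixed letters of the element in capitals (as their reverse complement where the element lies on the opposite strand).

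Hspa5 (chr2:34772005-34772063, + strand): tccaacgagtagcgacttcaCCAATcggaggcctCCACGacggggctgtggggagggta
Hsp90b1, outer element (chr10:86705618-86705676, - strand): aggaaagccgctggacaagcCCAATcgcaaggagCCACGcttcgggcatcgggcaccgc
Hsp90b1, inner element (chr10:86705513-86705571, - strand): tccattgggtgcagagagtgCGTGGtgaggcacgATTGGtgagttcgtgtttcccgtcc
Dnajc3 (chr14:118937807-118937865, + strand): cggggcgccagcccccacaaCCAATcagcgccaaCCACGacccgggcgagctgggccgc
Calr (chr8:84847055-84847113, - strand): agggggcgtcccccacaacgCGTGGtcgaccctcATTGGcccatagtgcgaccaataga
Canx (chr11:50325780-50325838, - strand): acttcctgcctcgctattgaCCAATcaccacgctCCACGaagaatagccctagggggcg
Pdia6 (chr12:17266471-17266529, + strand): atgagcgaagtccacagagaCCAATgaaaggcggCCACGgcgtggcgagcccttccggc
Creld2 (chr15:88819500-88819558, + strand): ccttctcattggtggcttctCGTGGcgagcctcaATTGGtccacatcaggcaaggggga
Syvn1 (chr19:6046512-6046570, + strand): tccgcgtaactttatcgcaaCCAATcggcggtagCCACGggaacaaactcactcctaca
Herpud1, ERSE-II (chr8:94386357-94386407, + strand): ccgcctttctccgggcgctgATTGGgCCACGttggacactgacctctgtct

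Hsp90b1 held an exact ERSE at 2 places, starting 212 and 107 bases before the transcript start. The exact ERSE of the other 7 genes started between 44 bases before the start (Syvn1) and 162 bases before it (Calr). A version with 1 letter off was found in Pdia3, Pdia4, Sec61g, Sel1l, Herpud1 and again in Hsp90b1, 6 of 26 genes against 1.61% of all genes. A match is a description of the letters and not evidence of binding in these cells.

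**Figure D1:**
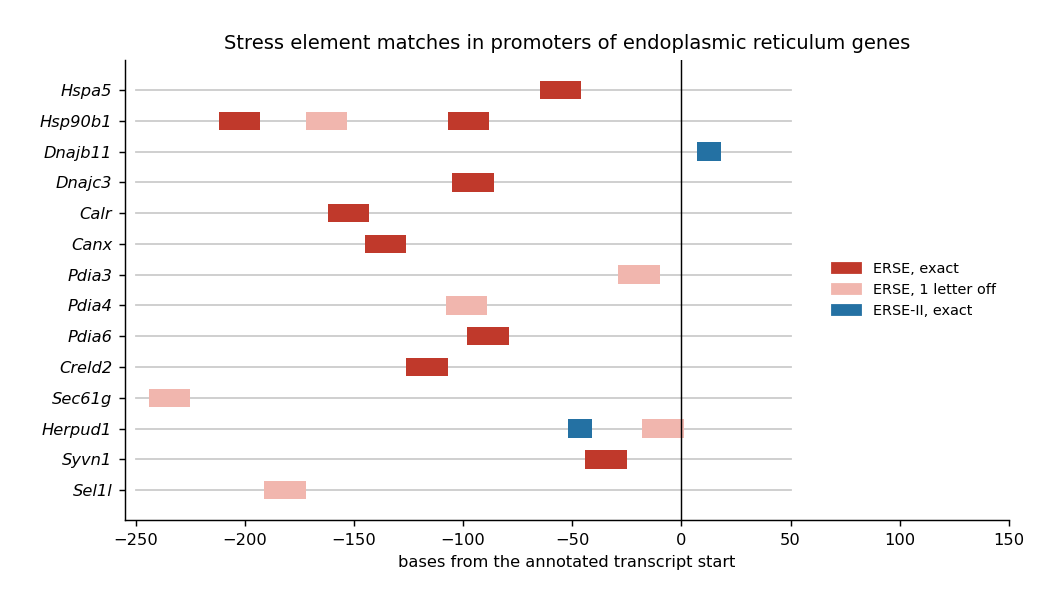
Positions of ERSE and ERSE-II matches in the promoter windows of the endoplasmic reticulum genes that hold any, in bases from the annotated transcript start (0). Each bar is 1 match and each grey line the window searched; exact ERSE matches lie between 212 and 44 bases before the start.

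The deposited counts summed to 51247080 in JQ1+, 50184508 in flavopiridol and 59786847 in DMSO. The 32 genes took 1.82% of these counts in JQ1+, 1.75% in flavopiridol and 1.42% in DMSO. Their RPKM summed to 14917.1 in JQ1+, 15292.4 in flavopiridol and 12112.5 in DMSO, so the order of the drugs depends on the measure. Each treatment has 1 library, so the spread between cultures is unknown and no test was made. Ratios carry 95% intervals that cover counting error only. B cell markers were abundant, with 6 markers summing to 4597 RPKM in JQ1+, 3768 in flavopiridol and 3512 in DMSO, and 5 T cell markers summed to between 0.843 and 1.42 RPKM. The T cell sum was highest in JQ1+. Cd3e was at 0 in JQ1+ and flavopiridol, Cd8a at 0 in JQ1+ and Cd3g at 0 in DMSO, while Cd3d and Cd4 were above 0 in every library. The 5 myeloid markers summed to 7.48, 13.96 and 7.88 RPKM in JQ1+, flavopiridol and DMSO, the higher flavopiridol sum coming from Emr1 (0.801, 9.47 and 0.922 RPKM), and 3 erythroid markers to between 1.63 and 2.07 RPKM. The 5 dendritic cell markers summed to 9.94 RPKM in JQ1+, 32.5 in flavopiridol and 89.1 in DMSO. The higher DMSO sum came from Batf3 (2.98, 11.1 and 55.9 RPKM in the same order) and Flt3 (2.55, 14.6 and 26.6). Zbtb46 was at 4.36, 6.85 and 6.63 RPKM, and Itgax at 0.02, 0.029 and 0.012. The plasmacytoid marker Siglech was at 0 in flavopiridol and DMSO. The part of dendritic cells in any difference was not tested. RNA from fewer cells of a type cannot be told apart from less RNA per cell in these bulk cultures.

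The levels of these genes spanned a wide range within each library. In DMSO the lectin chaperone gene Calr was highest at 1856 RPKM, rank 122 of all genes of at least 1 RPKM, followed by Hsp90b1 at 1344, Hspa5 at 1206 and Pdia4 at 1072 RPKM. These 4 were also the highest members in JQ1+ and flavopiridol, where Calr ranked 76 and 82. The channel subunit Sec61g was lowest in every library, at 14.7 RPKM in JQ1+, 14.4 in flavopiridol and 12.9 in DMSO, although it is part of the same channel as Sec61a1, at 184.9, 182 and 184 RPKM in the same order. Sec61b, the remaining channel subunit, lay between them at 95.2, 102 and 81.7 RPKM.

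**Figure D2:**
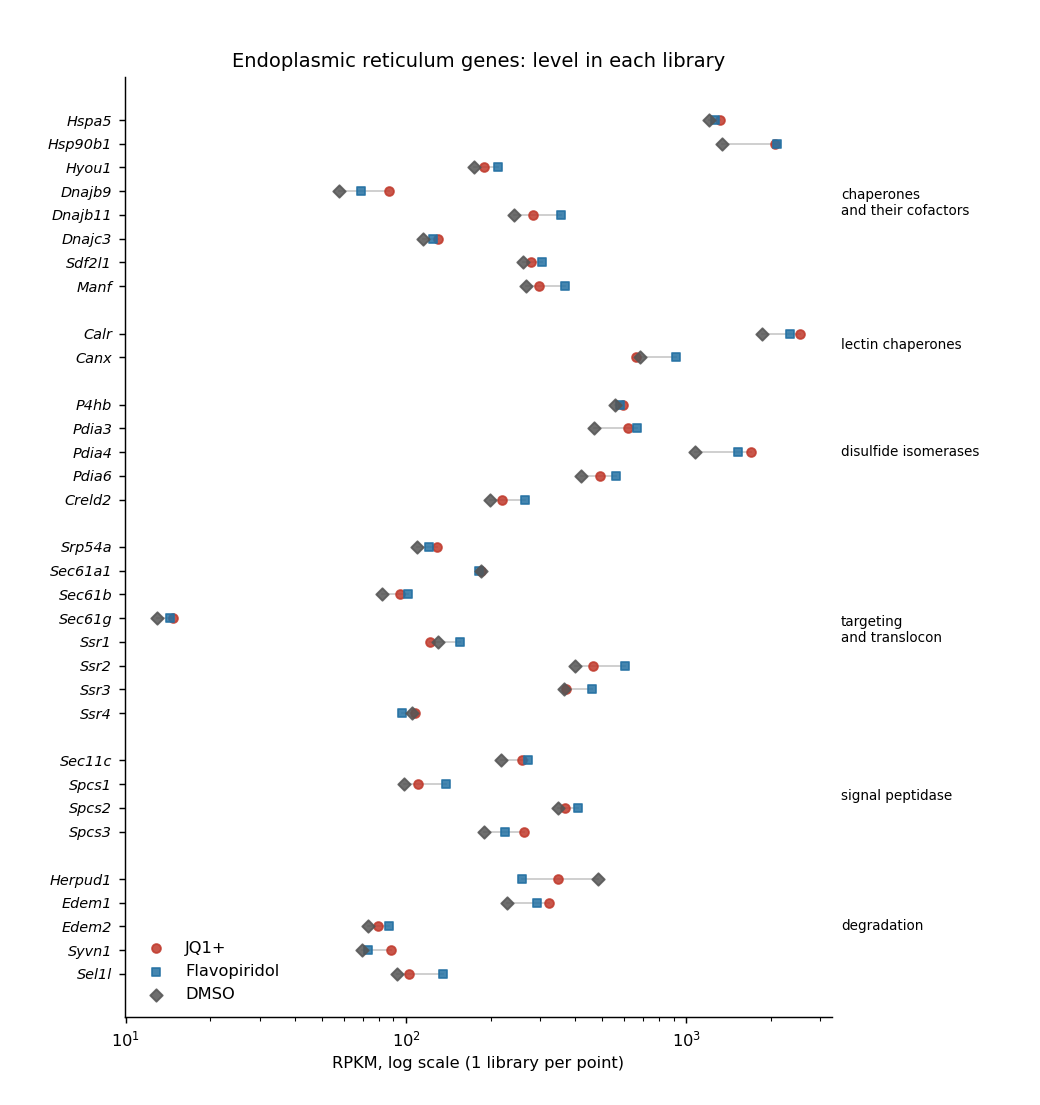
RPKM of each of the 32 genes on a log axis, 1 point per library, ordered by role. DMSO is the lowest of the 3 libraries for most genes, and Herpud1 is the exception in the degradation group with DMSO highest at 483 RPKM.

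The first question was how these genes differed after BET inhibition. In JQ1+ 29 of 32 stood higher than in DMSO, where 40.2% of all 14838 genes of at least 1 RPKM did. The differences were small: on the scale log2((RPKM + 1)/(RPKM + 1)) the median was 0.17, against -0.08 for all genes. Hsp90b1, Dnajb9 and Pdia4 rose at least 1.5-fold, 3 of 32 where 6.10% of all genes did, and none fell by that much, where 12.7% of all genes did. No member passed 2-fold in either direction, against 1.98% of all genes higher and 5.28% lower. Among the 3988 genes of at least 50 RPKM, which include 31 of the members, 37.1% stood higher in JQ1+. The counting interval of the ratio lay above 1 for 25 members (18.2% of all genes), below 1 for 3 (34.3%) and held 1 for 4. Under median-of-ratios scaling and under CPM (counts scaled to the library total) 30 of 32 stood higher, since Canx changed side.

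With flavopiridol, the question was the same for inhibition of transcriptional kinases. Here 29 of 32 stood higher than in DMSO, against 63.8% of all genes and 65.5% of genes of at least 50 RPKM, so most genes leaned the same way. The median was 0.29 for the members and 0.13 for all genes. The counting interval lay above 1 for 27 members (38.1% of all genes), below 1 for 2 (17.9%) and held 1 for 3. Hsp90b1 and Ssr2 rose at least 1.5-fold (12.3% of all genes) and Herpud1 fell (7.55%). None passed 2-fold, against 3.55% of all genes higher and 2.88% lower. Rescaling each library by the median of ratios brought the median of all genes from 0.13 to near 0. After that 25 of 32 stood higher, neither Hsp90b1 (0.501) nor Ssr2 (0.448) reached 1.5-fold, and Herpud1 passed 2-fold at -1.04. Ssr2 was also short of 1.5-fold under CPM (0.55) and when immunoglobulin genes were left out of the total (0.58). The comparisons with DMSO share the DMSO library, so a DMSO value that was low or high by chance would move both.

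**Figure D3:**
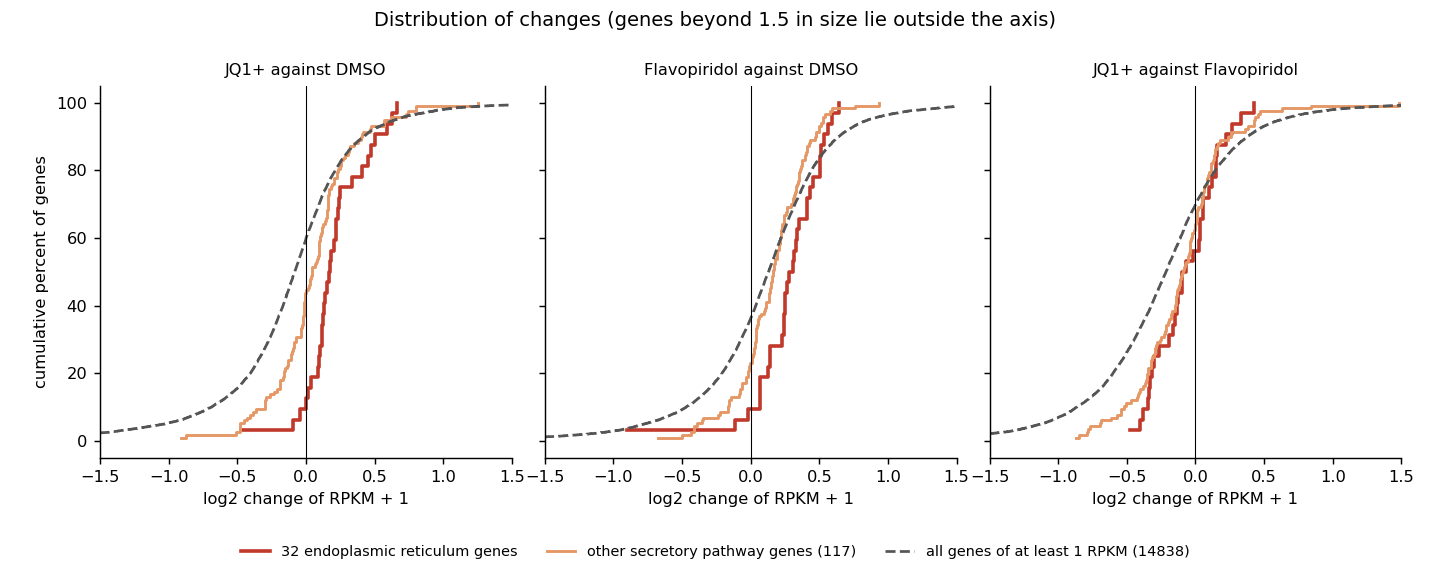
Cumulative percent of genes against the log2 change of RPKM + 1, for the 32 endoplasmic reticulum genes, 117 other secretory pathway genes and all 14838 genes of at least 1 RPKM, in each comparison. Against DMSO the curve of the 32 genes lies to the right of that of all genes at its median, 0.17 against -0.08 in JQ1+ and 0.29 against 0.13 in flavopiridol.

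Chaperones and their cofactors were higher in both drugs than in DMSO, 8 of 8 in each case, except that Hspa5 and Dnajc3 changed side in flavopiridol under median-of-ratios scaling. Hsp90b1, the lumenal Hsp90 known to fold Toll-like receptors and integrins, stood at 2079 RPKM in JQ1+, 2101 in flavopiridol and 1344 in DMSO. The drugs lay close together and DMSO was well below them: the ratio to DMSO was 1.55 in JQ1+ (interval 1.53 to 1.57) and 1.56 in flavopiridol (interval 1.54 to 1.58). Hspa5, or BiP, the lumenal Hsp70 that binds unfolded chains and holds the sensors inactive, differed far less, at 1313, 1266 and 1206 RPKM in the same order. Its ratio was 1.09 in JQ1+ (interval 1.07 to 1.11) and 1.05 in flavopiridol (interval 1.03 to 1.07), although its promoter and that of Hsp90b1 both hold an exact ERSE. The ratio of Hsp90b1 to Hspa5 within a library, which no rescaling of the library can alter, was 1.58 in JQ1+, 1.66 in flavopiridol and 1.11 in DMSO.

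The cofactors of BiP split by drug. Dnajb9, which delivers misfolded proteins to BiP and is known as a target of XBP1, stood at 87.1 RPKM in JQ1+, 69.1 in flavopiridol and 57.5 in DMSO. It was highest in JQ1+, 1.51-fold above DMSO (interval 1.38 to 1.66), and fell short of 1.5-fold with a pseudocount of 5 (0.56). Dnajb11, the cofactor that binds nascent chains, was instead highest in flavopiridol, at 285 RPKM in JQ1+, 358 in flavopiridol and 242 in DMSO. The BiP-binding secreted factor Manf followed the same order, at 298, 368 and 268 RPKM. Between the drugs Dnajb9 was 1.26-fold higher in JQ1+ (interval 1.15 to 1.38), whereas Dnajb11 was 1.26-fold lower (interval 1.21 to 1.30) and Manf 1.23-fold lower (interval 1.195 to 1.27). The median log2 change of all genes between the drugs was -0.21. Less that median, the values were 0.54 for Dnajb9, -0.11 for Dnajb11 and -0.09 for Manf, so these sizes rest on the scaling. Hyou1 is the nucleotide exchange factor of BiP, Sdf2l1 a partner of Dnajb11 and Dnajc3 a lumenal cofactor. Their ratios to DMSO were 1.08, 1.06 and 1.13 in JQ1+ and 1.21, 1.17 and 1.09 in flavopiridol.

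The lectin chaperones, which hold glycoproteins through a trimmed sugar, differed from each other. Calr, the soluble one, stood at 2541 RPKM in JQ1+, 2341 in flavopiridol and 1856 in DMSO, so both drugs were above DMSO. Canx, its membrane-bound counterpart, stood at 661 RPKM in JQ1+, 919.8 in flavopiridol and 681 in DMSO, so the flavopiridol library was above both others. The ratio of Canx to DMSO was 0.969 in JQ1+ (interval 0.951 to 0.989) and 1.35 in flavopiridol (interval 1.32 to 1.38). Under median-of-ratios scaling Canx in JQ1+ was on the other side of DMSO (0.05). Within a library Calr was 3.85 times Canx in JQ1+, 2.55 times in flavopiridol and 2.72 times in DMSO. Both promoters hold an exact ERSE.

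All 5 disulfide isomerases and related genes were higher in both drugs than in DMSO, except that P4hb changed side in flavopiridol under median-of-ratios scaling. Pdia4, which forms and exchanges disulfide bonds, stood at 1697 RPKM in JQ1+, 1526 in flavopiridol and 1072 in DMSO. DMSO was the lowest, and the ratios were 1.58 in JQ1+ (interval 1.55 to 1.61) and 1.42 in flavopiridol (interval 1.397 to 1.45). P4hb, the archetypal isomerase, hardly differed, at 595 RPKM in JQ1+, 582 in flavopiridol and 555 in DMSO. Pdia4 was therefore 2.85 times P4hb in JQ1+, 2.62 times in flavopiridol and 1.93 times in DMSO. Pdia3, the isomerase that works with Calr and Canx on glycoproteins, had ratios of 1.33 in JQ1+ and 1.42 in flavopiridol. Pdia6 (1.17 and 1.33) and the stress-induced cysteine-rich protein gene Creld2 (1.10 and 1.33) were further above DMSO in flavopiridol than in JQ1+. The order turned for Pdia6 under median-of-ratios scaling (log2 changes of 0.31 in JQ1+ and 0.27 in flavopiridol), and so did that of Pdia3.

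Genes of targeting and translocation had the lowest median of the roles in JQ1+, 0.11 over 8 genes, none of them past 1.5-fold. In JQ1+ 7 of 8 were higher than in DMSO, where 40.2% of all genes were. In flavopiridol 6 of 8 were, near the 63.8% of all genes. Sec61a1, the pore-forming subunit, had ratios of 1.002 in JQ1+ (interval 0.972 to 1.03) and 0.985 in flavopiridol (interval 0.954 to 1.02), both holding 1. The translocon-associated complex, which helps some signal peptides to enter the channel, was uneven. Ssr2 stood at 463 RPKM in JQ1+, 605 in flavopiridol and 401 in DMSO, and its ratio in flavopiridol was 1.51 (interval 1.44 to 1.58). Ssr1 and Ssr3 were also highest in flavopiridol, with ratios of 1.19 and 1.26, and were at 0.936 and 1.01 in JQ1+. Ssr4, the last subunit, was at 108 RPKM in JQ1+, 96.5 in flavopiridol and 105 in DMSO, so that flavopiridol was lowest for this subunit alone, with a ratio of 0.921 (interval 0.866 to 0.980). Ssr2 was 4.30 times Ssr4 in JQ1+, 6.27 times in flavopiridol and 3.83 times in DMSO. Srp54a, the signal-sequence binding protein of the signal recognition particle, had ratios of 1.18 and 1.10, but the close copies Srp54b and Srp54c make its share of reads uncertain.

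The 4 signal peptidase genes were higher in both drugs than in DMSO under every scaling tried. Spcs3, a subunit needed for cleavage, stood at 263 RPKM in JQ1+, 225 in flavopiridol and 189 in DMSO. JQ1+ was the highest, 1.39-fold above DMSO (interval 1.34 to 1.44). Spcs1, an accessory subunit, was instead highest in flavopiridol, at 109.9 RPKM in JQ1+, 139 in flavopiridol and 97.9 in DMSO, 1.42-fold above DMSO in flavopiridol (interval 1.31 to 1.54). The catalytic subunit gene Sec11c had ratios of 1.19 in JQ1+ and 1.24 in flavopiridol, and the accessory subunit gene Spcs2 had ratios of 1.07 and 1.18.

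In the degradation group 4 of 5 genes were higher than in DMSO with each drug. The share of all genes was 40.2% in JQ1+ and 63.8% in flavopiridol. Herpud1 was on the other side, and Syvn1 joined it in flavopiridol under median-of-ratios scaling. Herpud1, a membrane scaffold of the degradation complex and a known target of both the unfolded protein and the integrated stress responses, stood at 348 RPKM in JQ1+, 258 in flavopiridol and 483 in DMSO. It was highest in DMSO and lowest in flavopiridol, 1.39-fold lower in JQ1+ (interval 1.34 to 1.44) and 1.87-fold lower in flavopiridol (interval 1.796 to 1.94). Edem1, which helps extract glycoproteins from the folding cycle, was above DMSO in both drugs, at 325 RPKM in JQ1+, 292 in flavopiridol and 229 in DMSO. Syvn1, the ubiquitin ligase of the complex, stood at 88.3, 73.1 and 69.6 RPKM in the same order, so it was highest in JQ1+, with a ratio of 1.27 (interval 1.20 to 1.34). Sel1l, its adaptor, stood at 102, 135 and 93.1 RPKM, so it was highest in flavopiridol, with a ratio of 1.45 (interval 1.40 to 1.51). Edem2, a mannosidase of this pathway, had ratios of 1.09 and 1.19. The ratio of Herpud1 to Syvn1 within a library was 3.94 in JQ1+, 3.53 in flavopiridol and 6.93 in DMSO.

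**Figure D4:**
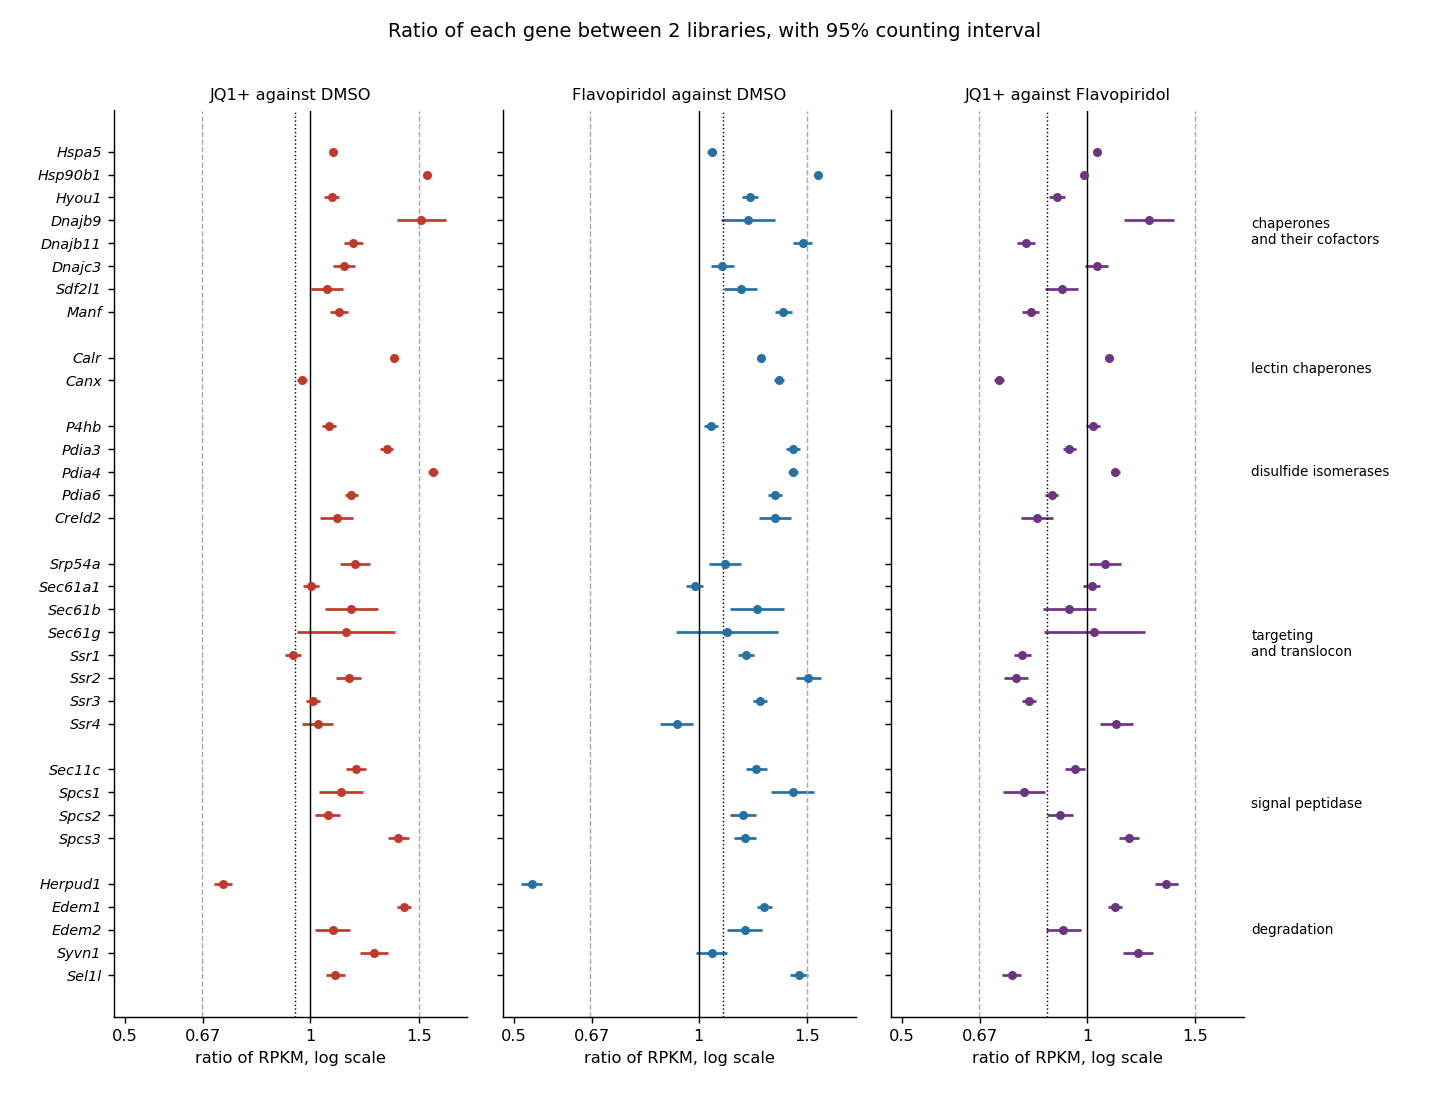
Ratio of RPKM between 2 libraries for each of the 32 genes on a log axis, with bars for the 95% counting interval. The solid line marks a ratio of 1, the dotted line the median of all genes and the dashed lines 1.5-fold; Herpud1 lies furthest to the left against DMSO, at 0.720 in JQ1+ and 0.535 in flavopiridol.

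Set directly against each other, JQ1+ was higher than flavopiridol for 14 of 32 genes, where 30.1% of all genes and 26.1% of genes of at least 50 RPKM were; under median-of-ratios scaling the count was 23 of 32 and under CPM 18 of 32. The genes that changed side under median-of-ratios scaling were Hsp90b1, Hyou1, Sdf2l1, Pdia3, Pdia6, Sec61b, Sec11c, Spcs2 and Edem2. The median was -0.08 for the members and -0.21 for all genes. The interval lay above 1 for 10 members (14.1% of all genes), below 1 for 16 (45.8%) and held 1 for 6. With libraries rescaled by the median of ratios the members' median was 0.15, and with CPM it was 0.02, so its sign rests on the scaling. No member differed by 1.5-fold, against 5.52% of all genes higher in JQ1+ and 21.0% lower (2-fold, 2.05% and 6.87%); under median-of-ratios scaling Herpud1 did, at 0.66. Herpud1 (1.35), Dnajb9 (1.26), Syvn1 (1.21) and Spcs3 (1.17) had the highest ratios of JQ1+ to flavopiridol. Canx (0.718), Sel1l (0.754), Ssr2 (0.765) and Ssr1 (0.785) had the lowest.

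Other genes of the secretory pathway differed less as a body. Of 125 listed genes 123 were matched, and 117 had a mean of at least 1 RPKM. Their median was 0.04 in JQ1+ and 0.17 in flavopiridol, with 65 and 90 of 117 higher than in DMSO, where 40.2% and 63.8% of all genes were. With median-of-ratios scaling 83 and 65 were higher, so the counts of genes on one side rest on the scaling. In JQ1+ 6 of 117 rose at least 1.5-fold, where 6.10% of all genes did, and 2 fell, where 12.7% did. In flavopiridol 3 rose, where 12.3% of all genes did, and 1 fell, where 7.55% did. Between the drugs 3 passed 1.5-fold on the side of JQ1+, where 5.52% of all genes did. On the side of flavopiridol 8 did, where 21.0% of all genes did. Under median-of-ratios scaling these counts were 9 and 2, where 1497 and 1788 of all 14838 genes passed. The 3 that rose with flavopiridol were Mogs, the glucosidase that starts trimming of N-glycans (0.76), and the retrieval receptors Kdelr2 (0.59) and Kdelr3 (0.94), the last below 5 RPKM on average. Kdelr2 was short of 1.5-fold under each other scaling, and both receptors were with a pseudocount of 5.

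Among the sensors and regulators, 3 rose with JQ1+. Ern1, the IRE1 gene, stood at 19.0 RPKM in JQ1+, 14.6 in flavopiridol and 11.1 in DMSO, 1.72-fold above DMSO in JQ1+ (interval 1.56 to 1.89). Eif2ak3, the PERK gene, stood at 57.7, 42.7 and 34.0 RPKM in the same order, 1.69-fold above DMSO in JQ1+ (interval 1.58 to 1.81). Creb3l2, a membrane-anchored transcription factor of secretory cells, was at 20.9, 11.2 and 8.18 RPKM, and was the gene of this list past 2-fold against DMSO, at 2.55-fold in JQ1+ (interval 2.28 to 2.86). In each of these 3 genes JQ1+ was highest and DMSO lowest, and Ern1 was short of 1.5-fold with a pseudocount of 5. Atf6 itself was nearly level, at 87.7, 90.4 and 87.8 RPKM, as was Mbtps1, which cleaves it, at 52.5, 52.7 and 47.2 RPKM. Atf6b had log2 changes of -0.13 and 0.23, and Mbtps2, the other protease, -0.41 and 0.14.

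Transcripts of the downstream factors did not share the order of Ern1 and Eif2ak3, and the activity of the sensors was not measured. Xbp1, which is spliced by IRE1 and drives the secretory programme, stood at 553 RPKM in JQ1+, 423 in flavopiridol and 556 in DMSO. Flavopiridol was lowest, at a ratio of 0.760 (interval 0.739 to 0.781), while JQ1+ was at 0.993 (interval 0.969 to 1.02). Gene-level values do not separate spliced from unspliced Xbp1. The PERK-side factors were lower in both drugs: Atf4 had ratios of 0.815 in JQ1+ and 0.751 in flavopiridol, Ddit3 of 0.833 and 0.784, and Ppp1r15a, which reverses the PERK signal, of 0.6995 and 0.736.

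**Figure D5:**
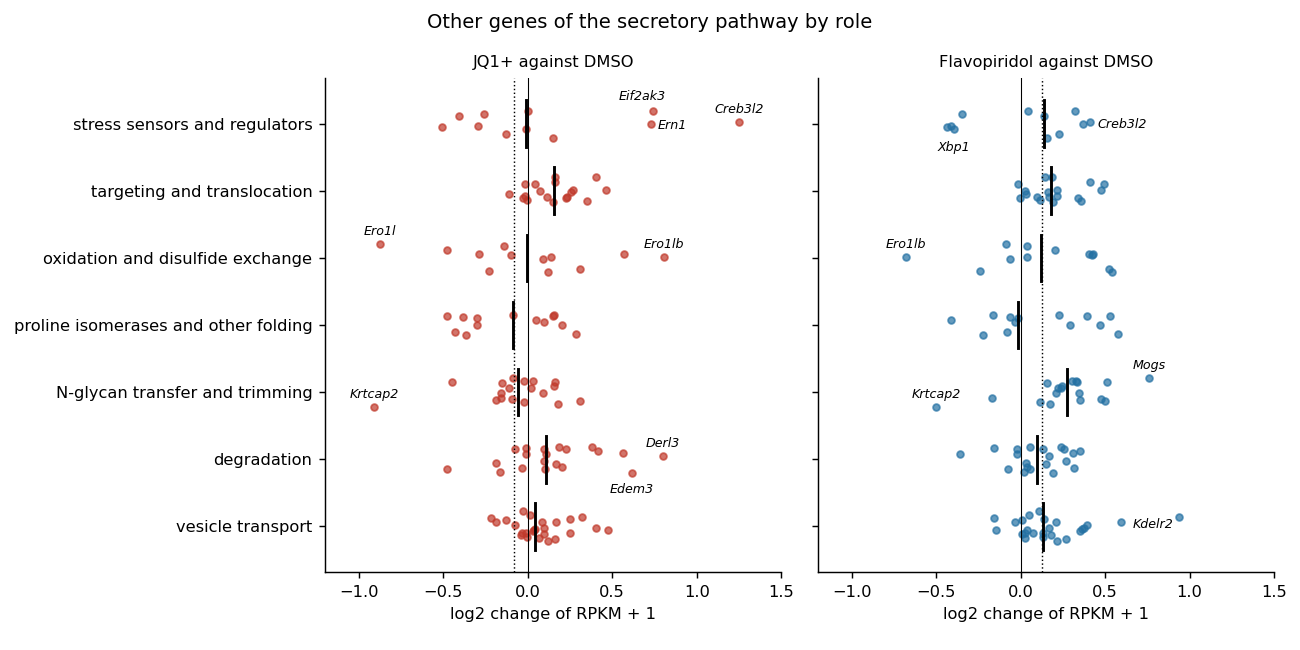
Log2 change of RPKM + 1 for 117 other secretory pathway genes by role, 1 point per gene, with a black bar at the median of each role and a dotted line at the median of all genes. Creb3l2, Eif2ak3 and Ern1 stand to the right in JQ1+ at 1.25, 0.74 and 0.73, and Ero1lb stands on opposite sides in JQ1+ (0.80) and flavopiridol (-0.68).

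Of the oxidases that recharge the disulfide isomerases, 1 rose and 1 fell in JQ1+, and in flavopiridol Ero1lb fell while Ero1l had a ratio of 0.943 (interval 0.883 to 1.01). Ero1lb, the form abundant in secretory cells, stood at 197 RPKM in JQ1+, 69.8 in flavopiridol and 112 in DMSO, highest in JQ1+ and lowest in flavopiridol. It was 2.82-fold higher in JQ1+ than in flavopiridol (interval 2.67 to 2.98). Ero1l, the form known to respond to hypoxia, stood at 35.5, 62.1 and 65.9 RPKM in the same order, so JQ1+ was lowest, at a ratio of 0.538 (interval 0.4996 to 0.580). Erp29, a lumenal protein related to the isomerases, had the highest value of this role in flavopiridol at 0.54, short of 1.5-fold.

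The counts by role are read against the 40.2% of all genes that stood higher in JQ1+ and the 63.8% in flavopiridol. Targeting and translocation genes outside the 32 were higher in 13 of 18 cases in JQ1+ and 16 of 18 in flavopiridol (17 and 12 under median-of-ratios scaling). Their range ran from Srp72 (-0.11) to the lumenal Hsp70 relative Hspa13 (0.46) in JQ1+, and from Sec61a2 (-0.01) to the signal peptidase subunit Sec11a (0.49) in flavopiridol. Of the N-glycan genes 7 of 18 stood above DMSO in JQ1+, near the share of all genes, and 16 of 18 in flavopiridol (9 and 15 under median-of-ratios scaling). Set directly against flavopiridol, 2 of 18 were higher in JQ1+, where 30.1% of all genes were (6 of 18 under median-of-ratios scaling). Krtcap2, an oligosaccharyltransferase subunit, fell in JQ1+ (-0.91) and was at -0.50 in flavopiridol, and Dad1, another subunit, was the highest in JQ1+ at 0.31. Degradation genes were above DMSO in 13 of 20 cases in JQ1+, where the channel component Derl3 (0.80) and the mannosidase Edem3 (0.62) rose, Edem3 falling short of 1.5-fold with a pseudocount of 5, and Aup1 was lowest (-0.48). In flavopiridol 15 of 20 were above DMSO, from the lectin Os9 (-0.36) to the conjugating enzyme Ube2j1 (0.35). Under median-of-ratios scaling the counts were 17 of 20 in JQ1+ and 9 of 20 in flavopiridol.

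Proline isomerases and other folding factors had 6 of 13 above DMSO in each drug, a count near the share of all genes in JQ1+ and below it in flavopiridol. They ran from Cnpy4 (-0.48) to the cargo receptor Lman1 (0.28) in JQ1+ and from Mzb1, which assists antibody assembly (-0.41), to Lman1 (0.58) in flavopiridol. Vesicle transport genes were above DMSO in 16 of 25 cases in JQ1+, from Cope (-0.21) to Sec24d (0.47). In flavopiridol 22 of 25 were, and Cope (-0.16) was again lowest. Under median-of-ratios scaling the counts were 22 of 25 in JQ1+ and 11 of 25 in flavopiridol.

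Antibody transcripts, the main cargo of this machinery in B cells, followed another order. Immunoglobulin genes took 4.19% of counts in JQ1+, 1.65% in flavopiridol and 2.47% in DMSO. The IgM heavy chain gene Ighm was at 61288, 25662 and 35234 RPKM in the same order. The plasma cell driver Prdm1 was at 67.2 RPKM in JQ1+, 56.5 in flavopiridol and 26.9 in DMSO. The 7 plasma cell markers together summed to 2904, 2326 and 2912 RPKM, and they did not share 1 order. Ratios to DMSO in JQ1+ and flavopiridol were 1.29 and 2.44 for Sdc1 and 1.002 and 1.43 for Irf4. They were 0.886 and 0.640 for Igj, 0.993 and 0.760 for Xbp1, and 1.03 and 0.751 for Mzb1. Tnfrsf17, at 0.846, 2.79 and 2.16 RPKM, had ratios of 0.392 and 1.29. The part of antibody and plasma cell genes in the differences of the endoplasmic reticulum genes was not tested.

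Members with an exact ERSE are set beside those without as a description. The 8 with one had a median log2 change of 0.20 in JQ1+ and 0.37 in flavopiridol, and the 18 with a window but no exact ERSE had 0.15 and 0.26. Herpud1 and Dnajb11, which hold an exact ERSE-II, are counted among the 18. The genes with an exact ERSE ran from Canx (-0.04) to Hsp90b1 (0.63) in JQ1+ and from Syvn1 (0.07) to Hsp90b1 (0.64) in flavopiridol. Pdia4, with only a version 1 letter off, rose in JQ1+ as much as Hsp90b1.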

How the data were processed

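Each library has a deposited table of counts and RPKM per gene, which were joined by Ensembl identifier. The counts are whole, unnormalised numbers deposited by the authors, and RPKM is the authors' own scaling of them by gene length and library size, per the file headers. Build mm9 is named in the submitters' processing notes. No source used here gives the aligner, counting program, annotation or handling of strand, so reads of overlapping antisense genes cannot be told apart. RNA was depleted of ribosomal RNA, per the labels' protocols.

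A change is log2 of RPKM with a pseudocount of 1, over genes whose mean reached 1 RPKM, and 1.5-fold and 2-fold on that scale were the size rules. With 1 library per group no count model was fitted. RPKM is relative to a library total and hides any change that all transcripts share. The count sums were 2.72 (JQ1+), 2.92 (flavopiridol) and 2.84 (DMSO) times the total behind the RPKM (found from counts, RPKM and reference exon lengths, which matched within 0.1% for 44.5% to 45.3% of genes), for a reason that no source used here gives. Counts were therefore taken as not independent and divided by these factors, an assumption on which every interval rests, before exact conditional binomial 95% intervals of the ratio were computed. The intervals and calls were tried on simulated independent counts. That trial does not test the division by these factors. Promoter windows are RefSeq's, of build GRCm38.p6, matched by symbol; no coordinates of the mm9 files were used. Other pathway genes were named where they were sensors or regulators, passed 2-fold, or were the highest or lowest of a role at 5 RPKM or more. Kdelr3 and Edem3 are named to complete small counts. The 32 genes, the lists and the size rules were chosen with earlier results of these data known, and the pairs compared within a library and the ERSE version with 1 letter off were chosen after their values were seen. Alternatives were pseudocounts of 0.1 and 5, no minimum and 5 RPKM, median-of-ratios scaling, counts scaled to the library total (CPM), scaling without immunoglobulin genes, protein-coding genes only and, added after seeing the data, a background of at least 50 RPKM. Python 3.11.15, numpy 2.4.6, pandas 2.3.3 and scipy 1.17.1 were used.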

Additional observations from a re-analysis of the deposited data

How the results depend on the processing

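Scaling was the choice that mattered most for the members. Under the median of ratios the members' median change was 0.259 in JQ1+ and 0.1505 in flavopiridol against DMSO, and 0.152 between the drugs, where the sign turned; under CPM it was 0.231 in JQ1+ against DMSO and 0.0233 between the drugs, again with the sign turned. The members at least 1.5-fold higher in flavopiridol numbered 0 under the median of ratios, 1 under CPM and 1 when scaled without immunoglobulin genes; under the median of ratios 1 member (Herpud1) was 2-fold lower in flavopiridol and 1 (Herpud1) was 1.5-fold higher in JQ1+ than in flavopiridol. Less the all-gene median, the members' median was 0.236 in flavopiridol against DMSO with no minimum, and between the drugs 0.0793 with a pseudocount of 5 and 0.0251 with no minimum; the cause was not tested, beyond that no minimum adds genes whose RPKM is near 0. In JQ1+ against DMSO Dnajb9 was short of 1.5-fold with a pseudocount of 5 (0.56) and Edem1 passed it under the median of ratios (0.59). Of 132 alternative values of the medians and counts 119 stayed within counting error or 1.5 times, 11 moved further and 2 turned sign. The 119 include values that could not move. A changed minimum alters only the background genes, so the members' own medians and fold counts were fixed under it. Of 480 values of single genes 324 stayed within counting error and 156 moved further, and none of those past 1.5-fold turned sign. The share of 2-fold calls of all genes that were lower moved by over 10 percentage points under several settings. In flavopiridol against DMSO it was 44.8%, and 58.2% under the median of ratios and 57.5% under CPM. There it was 56.8% with a pseudocount of 5 and 56.6% with a background of at least 50 RPKM. Between the drugs it was 77.0%, 57.3% under the median of ratios and 89.6% with protein-coding genes only. In JQ1+ against DMSO it was 72.7%, and 83.9% with protein-coding genes only. In flavopiridol against DMSO 1822 of all genes were 1.5-fold higher. The count was 1187 under the median of ratios, 1088 under CPM and 818 with a pseudocount of 5. Depth limits Sec61g, the least counted member at 602 deposited counts or more, whose counting interval held 1 in all 3 comparisons. No paired analysis was possible because each group has 1 library, and for the same reason no library could be left out.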

Other observations

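The genes whose 3 levels, each divided by their mean, lay nearest those of Hspa5 among 7298 others of at least 20 RPKM were Ppp1cb, Smc4, mt-Ts2, Tnks2 and Epn1, none of them a gene of the endoplasmic reticulum list, at distances between 0.00183 and 0.00396. Hspa5 was nearly level, and likeness over 3 libraries is a weak description.

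The copies of Srp54a gave like values. Srp54b stood at 111 RPKM in JQ1+, 107 in flavopiridol and 94.9 in DMSO, and Srp54c at 156, 146 and 131 RPKM. The pseudogene Spcs2-ps stood at 25.2, 27.5 and 26.9 RPKM.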
